A study of Mus musculus with 60 samples.

Results

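High-fat-fed mice that ran on wheels were compared with sedentary mice on chow in subcutaneous white adipose tissue, a fat depot under the skin that stores triglyceride. The 10 libraries of this comparison, 5 per group, were taken from 60 libraries of 3 tissues by the group and tissue given in their titles. All mice were C57BL/6JN and 12 weeks old at collection. The chow sedentary mice had received a diet with 10% of its energy from fat for 6 weeks and no wheel. The HFD trained mice had received a diet with 60% of its energy from fat for 6 weeks, with voluntary wheel running in the last 3. HFD sedentary mice, 5 libraries from the same depot, had the high-fat diet without the wheel and serve here to set diet apart from running. Chow trained mice, 5 libraries on the diet with 10% fat with the wheel in the last 3 weeks, enter the fit. Their CPM values are given for some genes. Every mouse was fasted for 6 hours and the wheels had been locked for 24 hours before the tissue was taken. Each library came from its own animal. The sources used here give neither sex nor the time of day of collection.

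White fat makes part of its fatty acids from glucose, by a chain of enzymes that turns citrate into palmitate and then desaturates and lengthens it. A diet rich in fat is known to lower this synthesis in rodents, while an expanding depot is known to raise leptin, caveolar proteins and matrix genes. Because diet and running both differ between the groups, the comparison asks which parts of the high-fat state were still present in mice that had run.

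The libraries compared held 505336 to 720220 estimated counts, with 13389 to 14618 genes at 1 count or more. Values per library are given in CPM (a count divided by the total of its library, times 1000000) in the order of replicates 1 to 5, and a count of 0 allows up to 4.17 to 5.94 CPM, by counting error only. Adipocyte genes were abundant in both groups: Adipoq, which encodes adiponectin, ranged from 2977 to 5198 CPM in chow sedentary and from 5760 to 7688 in HFD trained mice. Fabp4, a fatty acid carrier of adipocytes named after its values were seen, averaged 20330 CPM ± 3218 (SD, n = 5) on chow and 24300 ± 1041 in HFD trained mice.

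The chow sedentary libraries were not alike in their content of lymph node. Reads of Ccl21a, Ccl19 and Cxcl13, made by lymph node stroma, summed to 9, 1108, 4, 703 and 438 in chow sedentary replicates 1 to 5 and to 5, 13, 10, 16 and 6 in HFD trained mice. Replicates 2, 4 and 5 of chow sedentary thus carried lymph node reads and replicates 1 and 3 did not, as no HFD library did. The 12 B cell genes gave 5, 702, 3, 595 and 345 reads on chow and 6 to 12 in HFD trained mice, where Blk and Pax5 were at 0 in every library. The 15 T and NK cell genes gave 13, 869, 23, 445 and 273 reads on chow and 12 to 26 in HFD trained mice, where Cd3e was at 0. Skeletal muscle genes took 3.17% of the counts in chow sedentary replicate 1, at most 0.281% in the other chow sedentary libraries and at most 0.215% in HFD trained mice. HFD sedentary replicates 3 and 4 held 1.37% and 8.09% muscle reads, and HFD sedentary replicate 1 held 164 keratinocyte reads. The 14 liver genes gave 1101 to 2668 reads per chow sedentary library and 1217 to 2417 per HFD trained library. None of the 12 tested was called, and whether these reads came from liver was not tested. In the chow sedentary and HFD trained libraries, keratinocyte, mammary epithelium and mesothelium genes each summed to at most 9 reads. Krt5, Krt14, Elf5 and Upk3b were at 0 throughout those libraries. A fit without the lymph node libraries, in which only chow sedentary replicates 1 and 3 remain, is therefore set beside the results below.

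**Figure D1:**
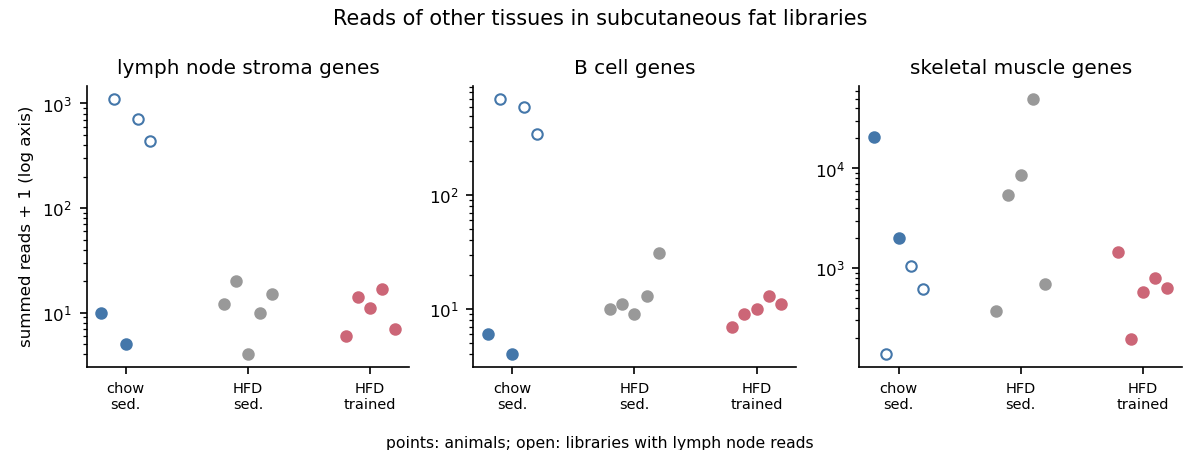
Summed reads plus 1 (log axis) of lymph node stroma, B cell and skeletal muscle genes in the subcutaneous fat libraries, one point per animal, open for libraries with at least 100 lymph node stroma reads. The open points are 3 of the 5 chow sedentary libraries, while HFD trained libraries lie at 16 or fewer lymph node stroma reads.

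Of 7069 genes tested, 139 (1.97%) differed between HFD trained and chow sedentary mice at an adjusted p below 0.05, 89 higher (1.26%) and 50 lower (0.707%) in HFD trained mice. Scaling by library totals in place of TMM called 250 genes, 214 of them higher, since TMM moved the log2 fold changes by -0.15. In the same fit 449 genes (6.35%) differed between HFD sedentary and chow sedentary mice, 251 higher and 198 lower in HFD sedentary mice. Between HFD trained and HFD sedentary mice 71 (1.00%) differed, 50 higher and 21 lower in HFD trained mice. These comparisons share libraries, so they are set side by side for each gene and not compared as lists. The fit without the lymph node libraries called 44 of 7759 genes (0.567%), 9 higher and 35 lower. Of the 139 genes, 131 could be tested there, all 131 had the same sign, and 28 were called again: 8 of the 89 higher and 20 of the 50 lower ones. That fit reuses libraries on which the 139 were picked, so the shared sign is no independent check. The CPM ranges of both groups did not overlap for 108 of the 139 genes, against 384 (5.43%) of all tested genes. Against the chow sedentary libraries without lymph node reads alone, the corresponding numbers were 121 of 139 and 1466 (20.7%). With 1 library left out at a time, 40 of the 139 genes kept their call in all 10 fits. Leaving out chow sedentary replicate 4, a lymph node library, lowered the number of calls to 49, and leaving out chow sedentary replicate 1 or 3, those without lymph node reads, raised it to 418 or 367. It was 88 without chow sedentary replicate 2, 102 without chow sedentary replicate 5, and 91, 88, 82, 78 and 83 without HFD trained replicates 1 to 5. For the other comparisons, the lowest numbers were 243 for HFD sedentary against chow sedentary mice without chow sedentary replicate 4, and 28 between the HFD groups without HFD sedentary replicate 5. The library codes fall into 2 runs, here called run A (chow sedentary replicates 1 to 3 and HFD trained replicates 1 and 2) and run B (the other 5 libraries, with lymph node reads in both chow sedentary ones), and no source says whether a run was 1 preparation. Run A alone gave 2 calls, and 88 when its lymph node library was left out, run B alone gave 141, and 138 of the 139 genes were called with the run as a factor.

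Of 16 listed fatty acid synthesis genes, all 16 were tested, 8 were lower in HFD trained than in chow sedentary mice and none was higher, with a median log2 fold change of -1.40 against -0.03 for all tested genes. The 8 were Acly, Acaca, Acacb, Fasn, Elovl6, Scd1, Me1 and Acss2. In HFD sedentary mice 12 of the 16 were lower than on chow (198 of all 7069 tested genes), with a median of -1.90. Between the HFD groups edgeR called none of the 16 (6 had an unadjusted p below 0.05, and limma voom and DESeq2, the latter run without the count filter, called 1 each), and the median was 0.57, higher in trained mice. Leaving out the lymph node libraries, 10 of the 16 were lower than on chow and the median was -1.79.

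Fasn (ENSMUSG00000025153, chr11:120805846-120824547, minus strand, mm10) encodes fatty acid synthase, which assembles palmitate. It stood at 1080, 697, 1784, 1503 and 803 CPM in chow sedentary mice and at 187, 213, 336, 272 and 355 in HFD trained mice. HFD sedentary mice had 113, 96.2, 184, 167 and 169 CPM. All HFD trained values lay below all chow values and above all HFD sedentary ones. Fasn was lower in HFD trained than in chow sedentary mice by a log2 fold change of -2.30 (SE 0.33, adjusted p = 0.000457), and the difference between the HFD groups, 0.93 (SE 0.32), did not pass the test (adjusted p = 0.238). The difference from chow was -2.65 without the lymph node libraries (adjusted p = 0.0009). Within run B it was -2.02 (adjusted p = 0.00125).

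Acaca makes malonyl-CoA, the building block for fatty acid synthase. It had 496, 344, 923, 694 and 340 CPM on chow, 127, 143, 208, 175 and 177 in HFD trained mice and 90.8, 77.8, 90.3, 45.3 and 71.8 in HFD sedentary mice. The 3 groups did not overlap. From chow, Acaca differed by a log2 fold change of -1.94 in HFD trained (SE 0.29, adjusted p = 0.000595) and -3.13 in HFD sedentary mice (adjusted p = 1.46e-06). The HFD groups differed by 1.18 with an adjusted p of 0.0504, and by 1.19 with an adjusted p of 0.0146 in the fit without the lymph node libraries. Acacb, whose malonyl-CoA restrains fatty acid entry into mitochondria, had 58.7 to 95.8 CPM on chow and 20.0 to 35.7 in HFD trained mice, a log2 fold change of -1.45 (adjusted p = 0.00513), and -1.66 without the lymph node libraries (adjusted p = 0.0201).

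Elovl6, which lengthens palmitate to stearate, showed the largest fall of the 8. Its values were 395, 214, 1262, 512 and 141 CPM on chow and 34.0, 34.3, 33.6, 23.4 and 29.0 in HFD trained mice, with 14.0 to 28.5 in HFD sedentary mice. Chow mice varied widely, with replicate 3 the highest, and none came near the HFD trained range. Elovl6 was lower by a log2 fold change of -4.24 (SE 0.58, adjusted p = 0.000729), and the HFD groups differed by 0.55 (adjusted p = 0.821). Elovl6 was at -5.00 without the lymph node libraries (adjusted p = 0.000408). Scd1, which desaturates stearate and palmitate and is a member of a family whose 3′ tags may be shared, fell from 24990 to 51850 CPM on chow to 9357 to 18470 in HFD trained mice (log2 fold change -1.35, SE 0.29, adjusted p = 0.0137; -1.80 and 0.013 without the lymph node libraries).

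Acly, Acss2 and Me1 were named after their values were seen, as the remaining called members. Acly, which splits citrate into acetyl-CoA, averaged 904 CPM ± 738 on chow and 136 ± 52.5 in HFD trained mice (n = 5 each). Its log2 fold change was -2.93 (SE 0.55, adjusted p = 0.0108), a call found in all 10 fits with a library left out. Acss2, which makes acetyl-CoA from acetate, fell by 2.13 on the log2 scale, and Me1, a source of NADPH, fell by 1.89. Acss2 lost its call without HFD trained replicate 2, 3 or 4 and without chow sedentary replicate 4 (adjusted p up to 0.0579), and Me1 without any 1 of the HFD trained libraries and without chow sedentary replicate 4 (up to 0.0721). All 3 were called without the lymph node libraries, at -3.55 for Acly, -2.79 for Acss2 and -2.57 for Me1. Scd2 (-1.46, adjusted p = 0.0568) and Thrsp (-1.26, adjusted p = 0.0631) did not pass the test. Both were called without the lymph node libraries, at -2.20 and -1.79. Srebf1 and Mlxipl, transcription factors of this pathway and, like Scd2 and Thrsp, named after their values were seen, were at 0.30 (adjusted p = 0.692) and -0.84 (adjusted p = 0.27).

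**Figure D2:**
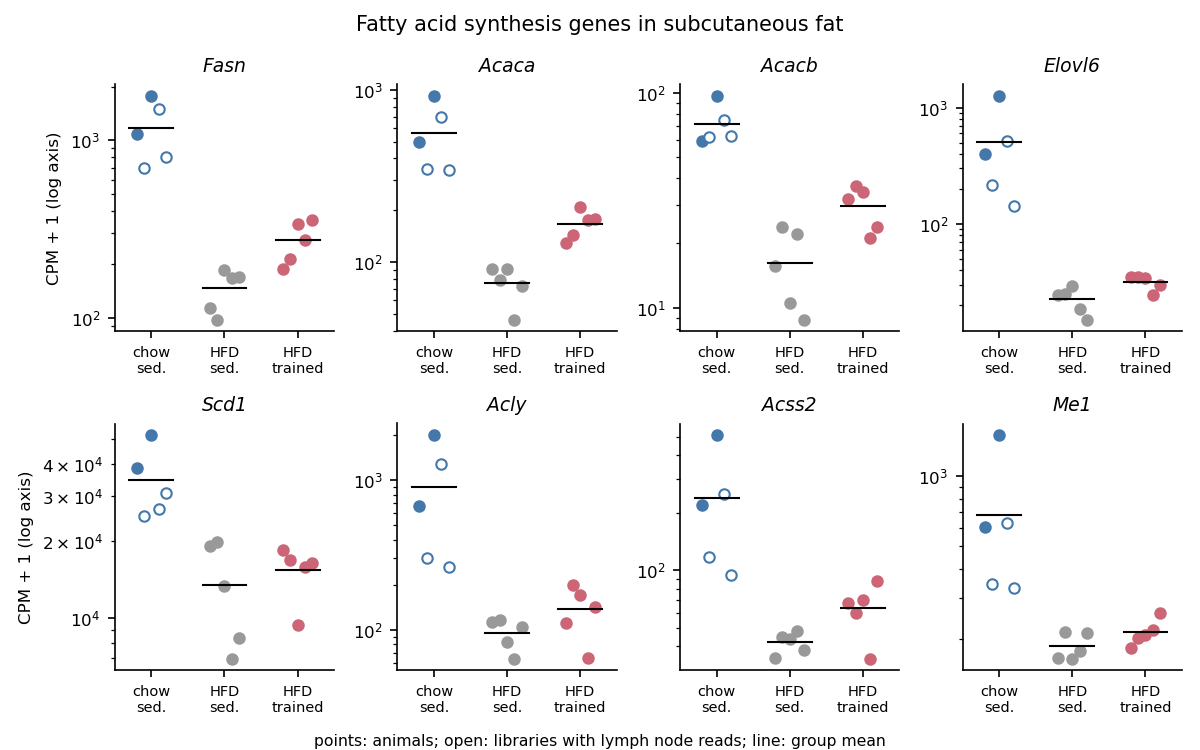
CPM plus 1 (log axis) of the 8 fatty acid synthesis genes that were lower in HFD trained than in chow sedentary mice, one point per animal, open for libraries with lymph node reads, lines at group means. HFD trained values lie below every chow sedentary value in all 8 panels, and for Fasn and Acaca above every HFD sedentary value.

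Because these genes fell together, their promoters were searched for the letters bound by known regulators of lipid synthesis. Windows of 300 bases, from 250 before to 50 after a RefSeq start (GRCm38.p6), were at hand for 7 of the 8 genes, with 2 windows for Me1 and none for Scd1. Those of Acaca and Acacb lie at a start inside the annotated gene, and 1 of the 2 windows of Me1 lies downstream of the other. Which start is used in fat was not tested. The E-box CACGTG was in none of the 8 windows (7.15% of 32851 promoter windows hold it) and TCACNCCAC, a sterol response element, in none (1.24%). CCAAT, the box bound by NF-Y, was in 5 of the 8 windows (37.41% of all windows), on either strand. They were those of Fasn, Acly, Acss2 and Acacb and the downstream one of the 2 of Me1. A match is a description of letters, not evidence of binding. Fasn held 3 matches, of which a pair overlaps on opposite strands, Acly and Acss2 held 1 each, and Elovl6 none. The windows are shown 5′ to 3′ in the direction of the gene, with CCAAT or its reverse complement in capitals. They are chr11:120824498-120824797 (minus strand) for Fasn, chr11:100527951-100528250 (minus) for Acly and chr3:129532136-129532435 (plus) for Elovl6.
Fasn: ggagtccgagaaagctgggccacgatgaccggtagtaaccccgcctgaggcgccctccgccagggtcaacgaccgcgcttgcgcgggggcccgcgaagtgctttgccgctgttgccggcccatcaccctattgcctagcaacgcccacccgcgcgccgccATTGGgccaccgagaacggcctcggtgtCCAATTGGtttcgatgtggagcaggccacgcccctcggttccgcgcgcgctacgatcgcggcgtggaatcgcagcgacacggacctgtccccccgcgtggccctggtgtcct
Acly: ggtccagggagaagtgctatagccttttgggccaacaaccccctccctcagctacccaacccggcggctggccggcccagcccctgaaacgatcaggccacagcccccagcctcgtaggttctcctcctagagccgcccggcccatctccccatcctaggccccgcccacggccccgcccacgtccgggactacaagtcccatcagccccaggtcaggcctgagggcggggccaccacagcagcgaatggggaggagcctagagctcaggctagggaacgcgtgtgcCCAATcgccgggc
Elovl6: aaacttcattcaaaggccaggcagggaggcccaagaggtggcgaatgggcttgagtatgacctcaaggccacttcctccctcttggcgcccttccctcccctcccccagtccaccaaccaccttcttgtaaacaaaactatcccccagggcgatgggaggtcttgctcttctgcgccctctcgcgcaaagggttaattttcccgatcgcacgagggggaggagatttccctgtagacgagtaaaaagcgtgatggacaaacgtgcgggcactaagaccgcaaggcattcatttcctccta

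Tkt, one of the 10 leading lower genes and the transketolase of the pentose phosphate pathway, had 811, 602, 1529, 1273 and 566 CPM on chow and 324, 432, 337, 314 and 285 in HFD trained mice. The groups did not overlap, and the log2 fold change of Tkt was -1.68 (SE 0.31, adjusted p = 0.00508) and -2.03 without the lymph node libraries (adjusted p = 0.0009). Slc2a5, the fructose transporter, named after its values were seen, had 5.94 to 43.0 CPM on chow, no more than 2.86 in HFD trained mice and 0 in all 5 HFD sedentary libraries. Those HFD values are below the 3 counts that a count of 0 allows, and the call (adjusted p = 0.0195) was lost without HFD trained replicate 1, 3, 4 or 5 and without chow sedentary replicate 4 (up to 0.0592) but not without the lymph node libraries (adjusted p = 0.00353). Pdk1, a kinase that switches off pyruvate dehydrogenase, had 40.2 to 62.7 CPM on chow and 16.7 to 21.3 in HFD trained mice (-1.48, SE 0.25, adjusted p = 0.00137; -1.38 and 0.0503 without the lymph node libraries). Mpc1, a subunit of the mitochondrial pyruvate carrier, was lower by a log2 fold change of -1.12 (adjusted p = 0.0318), and -1.52 without the lymph node libraries (adjusted p = 0.00222). Its groups overlapped, and it lost the call without HFD trained replicate 1, 3, 4 or 5 and without chow sedentary replicate 3 or 4 (adjusted p up to 0.103). Of 26 genes of the TCA cycle and pyruvate entry, Mpc1 and Pdk1 were the called ones, with a list median of -0.27.

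Sorl1, a sorting receptor that returns insulin receptor to the cell surface, had the lowest adjusted p among the lower genes. It stood at 44.8, 89.1, 113, 96.3 and 58.6 CPM on chow and at 20.7, 17.2, 22.4, 21.7 and 9.14 in HFD trained mice. HFD sedentary mice, at 11.1 to 29.1 CPM, overlapped the trained ones. Sorl1 was lower than on chow by a log2 fold change of -2.29 (SE 0.32, adjusted p = 0.000176) and -2.36 without the lymph node libraries (adjusted p = 0.00622). Vwa8, a mitochondrial ATPase, and Parm1, a membrane mucin, were lower by -1.20 (adjusted p = 0.00381) and -1.90 (adjusted p = 0.00939), also with non-overlapping groups, and each was called whichever library was left out and without the lymph node libraries (adjusted p = 0.0302 and 0.00753). Hsd11b1, which regenerates active glucocorticoid and was named after its values were seen, had 162 to 412 CPM on chow and 123 to 187 in HFD trained mice (-0.96, adjusted p = 0.0236; -1.43 and 0.0009 without the lymph node libraries). Its call was lost without HFD trained replicate 2, 3 or 4 (up to 0.0787).

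Of 20 cholesterol synthesis genes 11 were tested, with Pmvk, phosphomevalonate kinase, the only one called. Pmvk had 98.8, 49.5, 135, 116 and 67.0 CPM on chow and 51.8, 52.9, 49.6, 50.1 and 41.1 in HFD trained mice. Only chow sedentary replicate 2, a lymph node library, lay within the HFD trained range. The log2 fold change was -1.11 (SE 0.24, adjusted p = 0.0144) and missed the threshold without chow sedentary replicate 4 (adjusted p = 0.0573). The list median was -0.73, and without the lymph node libraries 4 of 12 tested members were lower (median -1.03): Pmvk, Insig1 (-1.70), Cyp51 (-1.70) and Fdps (-1.51), the last 3 named after their values were seen. Eno1, the enolase of glycolysis, was the called gene among 15 (-0.998, adjusted p = 0.0294; 0.0792 without the lymph node libraries, and up to 0.133 without HFD trained replicate 1, 2, 4 or 5 and without chow sedentary replicate 4), and the glycolysis median was -0.42.

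Among the higher genes, 5 of the 10 leading ones kept their call without the lymph node libraries: Ifi27l2a, Nnmt, Prps1, Anxa6 and Alas1. Ifi27l2a (ENSMUSG00000079017, chr12:103442167-103443680, minus strand), a small interferon-inducible protein, had 3132, 3184, 1976, 2830 and 3909 CPM on chow. HFD sedentary mice had 7866, 7740, 10720, 6336 and 8446 CPM, and HFD trained mice 11970, 14280, 18330, 15440 and 11880. The 3 groups followed each other without overlap. Ifi27l2a differed from chow by a log2 fold change of 2.12 in HFD trained (SE 0.20, adjusted p = 8.54e-07) and 1.27 in HFD sedentary mice (adjusted p = 0.000245), and the HFD groups differed by 0.85 (SE 0.20, adjusted p = 0.0291). Leaving out the lymph node libraries gave 2.28 (adjusted p = 9.46e-05), and it was called in run A and run B alone, at 2.16 (adjusted p = 0.039) and 2.02 (adjusted p = 0.00406). It was the called gene among 22 interferon-induced genes tested, whose median was 0.10.

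Nnmt (ENSMUSG00000032271, chr9:48591877-48605153, minus strand) methylates nicotinamide with S-adenosylmethionine and is known to rise in fat of obese mice. It had 295, 232, 214, 188 and 261 CPM on chow, 743, 802, 793, 729 and 875 in HFD trained mice and 703, 518, 561, 537 and 802 in HFD sedentary mice. Both HFD groups lay above all chow values and overlapped each other. Nnmt was higher than on chow by a log2 fold change of 1.58 (SE 0.17, adjusted p = 2.51e-06), 1.41 without the lymph node libraries (adjusted p = 0.0009), and 0.38 between the HFD groups (SE 0.16, adjusted p = 0.343). Prps1, which makes the ribose phosphate donor of nucleotide synthesis, had 74.1, 71.2, 43.0, 41.3 and 68.7 CPM on chow and 256, 254, 206, 187 and 187 in HFD trained mice. Its log2 fold change was 1.74 (SE 0.21, adjusted p = 1.87e-05), 1.63 in HFD sedentary mice (adjusted p = 1.69e-05) and 0.11 between the HFD groups (adjusted p = 0.907). From chow, Prps1 was at 1.69 without the lymph node libraries (adjusted p = 0.00399).

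Anxa6, a calcium-dependent membrane-binding protein, was the most even of the 5. Chow values were 199, 180, 203, 184 and 198 CPM and HFD trained values 431, 427, 430, 444 and 462, a log2 fold change of 1.03 (SE 0.14, adjusted p = 0.000132). Alas1, the first enzyme of heme synthesis, had 127 to 157 CPM on chow and 279 to 498 in HFD trained mice (1.28, SE 0.19, adjusted p = 0.000332). The HFD groups differed by 0.07 for Anxa6 (adjusted p = 0.917) and 0.49 for Alas1 (adjusted p = 0.262). From chow, the values without the lymph node libraries were 0.90 for Anxa6 (adjusted p = 0.0187) and 1.13 for Alas1 (adjusted p = 0.0364). Emp1, Por and Rasl12, named after their values were seen, were the other higher genes called in both fits. Por, the electron donor of microsomal cytochrome P450, was at 0.93 (adjusted p = 0.0412) and at 1.43 without the lymph node libraries (adjusted p = 0.0279), with 0.00 in HFD sedentary against chow sedentary mice (adjusted p = 0.997). Its call was lost without HFD trained replicate 3, 4 or 5 and without chow sedentary replicate 2, 3 or 4 (up to 0.119), whereas Emp1 and Rasl12 were called whichever library was left out.

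Of 13 genes linked to fat cell expansion and caveolae, Mest, Sncg, Nnmt and Cav1 were higher and none was lower, with a median of 0.96. The median was 1.497 in HFD sedentary mice, where 11 were higher. The median in HFD trained mice was 0.34 without the lymph node libraries, and only Nnmt was called there. That fit keeps only chow sedentary replicates 1 and 3. The parts of lymph node reads, of fewer mice and of other traits of those replicates were not tested. Mest, an imprinted gene that follows fat mass gain, had 51.0, 9.89, 23.6, 15.3 and 16.8 CPM on chow and 151, 120, 104, 172 and 276 in HFD trained mice. The lowest chow value came from a lymph node library and the highest from the library with the most muscle reads, and every HFD trained value exceeded both. Mest was higher by a log2 fold change of 2.61 (SE 0.38, adjusted p = 0.000697), and 1.92 without the lymph node libraries (adjusted p = 0.0792). HFD sedentary mice had 174 to 396 CPM, and the HFD groups differed by -0.67 (adjusted p = 0.455). Sncg, gamma-synuclein, rose by 0.96 (adjusted p = 0.0163) and Cav1, caveolin 1, named after its values were seen, by 0.87 (adjusted p = 0.0419). Sncg missed the threshold without chow sedentary replicate 4 (adjusted p = 0.0635) and was at 0.56 without the lymph node libraries, and Cav1 at 0.35. Cav1 missed it without any 1 of the HFD trained or lymph node libraries (up to 0.131). In bulk tissue, fewer cells of a type and less RNA per cell cannot be told apart.

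Leptin did not pass the main test, and 11 of 26 alternatives called it. Lep had 392, 133, 282, 133 and 109 CPM on chow, 688, 563, 345, 454 and 737 in HFD trained mice and 2010, 1458, 1029, 1313 and 2832 in HFD sedentary mice. HFD trained replicate 3 lay within the chow range, whose upper values came from the libraries without lymph node reads, and no HFD trained value reached the HFD sedentary ones. The log2 fold change of Lep in HFD trained mice was 1.23 (SE 0.34, adjusted p = 0.0631) and 0.50 without the lymph node libraries (adjusted p = 0.69). It was called with the run as a factor (1.40, adjusted p = 0.0195), within run B (1.90, adjusted p = 0.0393), with library totals (1.41, adjusted p = 0.0244), without a count filter (adjusted p = 0.00198), by limma voom (adjusted p = 0.0354) and by DESeq2 (adjusted p = 0.0211). The replicate block, which fits replicate numbers as a factor although they do not pair the mice, called Lep too (1.26, adjusted p = 0.0315). Leaving out chow sedentary replicate 1 or 3 also called it, at 1.58 (adjusted p = 0.0116) and 1.41 (adjusted p = 0.0353). Between the HFD groups Lep differed by -1.59 (SE 0.34, adjusted p = 0.0229).

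Of 44 extracellular matrix genes tested, Efemp1 and Loxl1 were higher and none was lower, against 12 higher in HFD sedentary mice. The list median was 0.43, and 0.01 over the 45 members tested without the lymph node libraries. Efemp1, fibulin 3, had 52.5, 21.8, 31.9, 26.0 and 28.5 CPM on chow, 96.2, 107, 75.2, 76.8 and 97.5 in HFD trained mice and 189, 226, 141, 136 and 150 in HFD sedentary mice. The 3 groups did not overlap, with HFD trained mice between the others. Efemp1 was higher than on chow by a log2 fold change of 1.32 (SE 0.22, adjusted p = 0.00137), and the trained group was lower than HFD sedentary mice by -0.85 (SE 0.20, adjusted p = 0.0298). Without the lymph node libraries these were 0.89 (adjusted p = 0.142) and -0.84 (adjusted p = 0.0133). Loxl1, a cross-linker of elastin, was at 1.44 (adjusted p = 0.0304; up to 0.105 without HFD trained replicate 2, 3 or 5 and without chow sedentary replicate 2, 4 or 5, and 0.377 without all lymph node libraries). Col1a1, the main fibrillar collagen, was at 0.36 (adjusted p = 0.592) and at -0.38 without the lymph node libraries, and was called within run B alone (1.28, adjusted p = 0.0202).

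The mesenchymal progenitor genes, a marker list for the precursors of fat cells, gave 1358 to 2240 reads per chow library and 3208 to 4164 in HFD trained mice. Of 11 tested members Gsn and Dpt were higher, and the median was 0.19. Gsn, gelsolin, which severs actin filaments and is also made by adipocytes, held most of those reads, with 2613, 2068, 1793, 1417 and 2160 CPM on chow and 4918, 4390, 4943, 4298 and 4685 in HFD trained mice. Its log2 fold change was 1.06 (SE 0.22, adjusted p = 0.0131), with an adjusted p of 0.0555 without chow sedentary replicate 4 and 0.173 without the lymph node libraries. Dpt, dermatopontin, was at 1.05 (adjusted p = 0.0208), lost without HFD trained replicate 1 or 2 and without chow sedentary replicate 2 or 4 (up to 0.0761), and at 0.72 without the lymph node libraries (adjusted p = 0.415). Angptl2, a secreted inflammatory adipokine, had 13.8 to 35.6 CPM on chow and 65.7 to 93.5 in HFD trained mice, above all 5 HFD sedentary values of 34.0 to 52.3. Chow trained mice had 27.6 to 104 CPM of Angptl2 and overlapped HFD trained mice. The log2 fold change of Angptl2 from chow sedentary mice was 1.42 (SE 0.26, adjusted p = 0.00381), and 0.89 between the HFD groups (adjusted p = 0.0757). Leaving out the lymph node libraries ended the call of Angptl2 from chow (1.31, adjusted p = 0.0659), whereas its difference between the HFD groups was then called (0.90, adjusted p = 0.0447). Tmem45b and Myadm, a pair of membrane proteins, were higher by 1.57 (adjusted p = 0.00204) and 1.23 (adjusted p = 0.00227), with 1.25 and 1.23 in HFD sedentary mice. Both were called whichever library was left out, and both missed the threshold without the lymph node libraries (adjusted p = 0.0637 and 0.16).

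Of 15 acute-phase and complement genes tested, Hp, C4b, Cfb and Serpina3c were higher and none was lower, with a median of 0.60. In HFD sedentary mice 7 were higher, with a median of 0.82. Serpina3c, a serine protease inhibitor, had 117, 45.5, 63.9, 48.9 and 75.4 CPM on chow and 178, 154, 134, 177 and 262 in HFD trained mice. The groups did not overlap, and the log2 fold change of Serpina3c was 1.19 (SE 0.24, adjusted p = 0.00939) with 1.52 in HFD sedentary mice. Cfb, complement factor B, was at 0.67 (adjusted p = 0.0285) and C4b at 0.86 (adjusted p = 0.0374). Hp, haptoglobin, named after its values were seen, had 495 to 958 CPM on chow, 1175 to 2001 in HFD trained and 2225 to 6991 in HFD sedentary mice. It was higher than on chow by 1.02 (adjusted p = 0.0378) and lower than in HFD sedentary mice by -1.18 (adjusted p = 0.0212). None of the 4 was called without the lymph node libraries, where their log2 fold changes were 0.69 to 1.01. The called member there was a lower one, Orm1, an acute-phase protein named after its values were seen (-1.005, adjusted p = 0.0302; -0.44 and 0.356 with all libraries). Serpina3c was called whichever library was left out. The other 3 lost their calls in several such fits: Cfb without HFD trained replicate 1, 2, 3 or 4 and chow sedentary replicate 4 or 5 (up to 0.0737), C4b without HFD trained replicate 2, 3 or 4 and chow sedentary replicate 4 (up to 0.119), and Hp without HFD trained replicate 1, 2, 4 or 5 and any lymph node library (up to 0.101).

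A further set of genes differed from both sedentary groups, on chow and on HFD. HFD trained mice were not tested against chow trained mice, whose values are given below for Dbp, Per3, Tef, Slc5a6 and Xbp1. The set held circadian clock genes, of which 17 were listed and 9 were tested. Dbp, Per3, Tef and Nr1d2 were higher in HFD trained than in chow sedentary mice, with none lower and a median of 0.65. None of the 9 was called in HFD sedentary against chow sedentary mice by edgeR, DESeq2 or limma voom (0 with an unadjusted p below 0.05, median -0.18). Between the HFD groups 5 of the 9 were higher in trained mice (median 1.23), as were 50 of all 7069 tested genes. The clock drives daily rhythms of transcription, and Dbp and Tef encode PAR bZIP factors among its output.

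Dbp (ENSMUSG00000059824, chr7:45705088-45710203, plus strand) had 7.72, 21.8, 0, 4.59 and 6.70 CPM on chow, 1.47, 5.66, 9.50, 4.85 and 6.24 in HFD sedentary mice and 38.5, 35.7, 27.2, 60.1 and 45.7 in HFD trained mice. Every HFD trained value exceeded every value of both sedentary groups. Chow trained mice, at 59.9, 57.1, 10.2, 41.1 and 35.75 CPM, overlapped HFD trained mice. Dbp was higher by a log2 fold change of 2.29 from chow sedentary (SE 0.48, adjusted p = 0.0137) and 2.90 from HFD sedentary mice (SE 0.50, adjusted p = 0.0051). It stood at 3.21 from chow without the lymph node libraries with an adjusted p of 0.0637, and its adjusted p was 0.0555 without chow sedentary replicate 4.

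Per3, a period gene, had 24.7, 19.8, 12.5, 7.64 and 21.8 CPM on chow and 51.8, 41.5, 51.2, 66.8 and 70.1 in HFD trained mice, a log2 fold change of 1.55 (SE 0.30, adjusted p = 0.00563). Tef had 34.0, 35.6, 11.1, 18.4 and 40.2 CPM on chow and 66.6, 51.5, 97.6, 83.5 and 97.5 in HFD trained mice, a log2 fold change of 1.38 (SE 0.28, adjusted p = 0.00939). For both, chow sedentary and HFD trained mice did not overlap, and the log2 fold changes from HFD sedentary mice were 1.57 (adjusted p = 0.00669) and 1.44 (adjusted p = 0.00728). Chow trained mice, at 8.71 to 47.0 CPM for Per3 and 33.4 to 89.1 for Tef, overlapped HFD trained mice. Nr1d2, a repressor of the clock named after its values were seen, was at 1.05 (adjusted p = 0.0293; up to 0.105 without HFD trained replicate 1, 2 or 5 and without chow sedentary replicate 4 or 5). None of the 4 was called without the lymph node libraries, where the median over 12 tested members was 0.91 and 8 had an unadjusted p below 0.05. Over the 9 members tested in both fits, the median was 0.645 with all libraries and 1.095 without the lymph node ones. Arntl, an activator of the clock, was too low for the test and averaged 8.67 CPM ± 3.05 on chow and 1.198 ± 1.24 in HFD trained mice, and Ciart, a repressor, 1.23 ± 1.30 and 14.9 ± 5.05. Both were picked after their values were seen.

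Slc5a6, which imports biotin and pantothenate, was also higher in HFD trained mice than in both sedentary groups. It had 7.72, 15.8, 11.1, 4.59 and 3.35 CPM in chow sedentary mice and 53.3, 34.3, 35.2, 28.4 and 50.3 in HFD trained mice. HFD sedentary mice had 4.75 to 9.70 CPM. Chow trained mice had 8.71 to 77.7 CPM and overlapped HFD trained mice. The log2 fold change of Slc5a6 was 2.09 from chow sedentary (SE 0.41, adjusted p = 0.00621) and 2.30 from HFD sedentary mice (adjusted p = 0.0051). Xbp1, a transcription factor of the unfolded protein response, had 68.0, 75.2, 45.8, 36.7 and 62.0 CPM on chow and 144, 109, 122, 137 and 117 in HFD trained mice. Chow trained mice, at 45.7 to 93.9 CPM, lay below all HFD trained values. The log2 fold changes of Xbp1 were 0.99 from chow sedentary (SE 0.19, adjusted p = 0.00513) and 0.98 from HFD sedentary mice (adjusted p = 0.00669), beside 0.01 in HFD sedentary against chow sedentary mice. Without the lymph node libraries Slc5a6 was at 1.84 (adjusted p = 0.188) and Xbp1 at 0.92 (adjusted p = 0.0637).

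Pnldc1, an RNA exonuclease, was at 1.86 (adjusted p = 0.0143, 0.0555 without chow sedentary replicate 4, and 0.134 without the lymph node libraries). Akt2, the main insulin-signalling kinase of fat, had 97.3, 91.0, 114, 62.7 and 127 CPM on chow and 232, 210, 189, 170 and 146 in HFD trained mice, a log2 fold change of 0.79 (SE 0.20, adjusted p = 0.038). It differed by 1.05 between the HFD groups (adjusted p = 0.00728), and was the called gene among 12 of insulin signalling and glucose uptake, whose median was 0.18. The call from chow was lost without HFD trained replicate 1, 2, 3 or 4 and without chow sedentary replicate 2 or 4 (adjusted p up to 0.131), and also without the lymph node libraries (0.61, adjusted p = 0.436). Nrg4, a secreted factor of fat, Trarg1, which acts on traffic of the insulin-responsive glucose transporter, Tmem120a and Pank3, a kinase of coenzyme A synthesis, were named after their values were seen. They were higher by 0.85, 0.93, 0.87 and 1.10 from chow sedentary mice and by 1.24, 0.96, 1.08 and 0.92 from HFD sedentary mice. Pank3 was called from chow whichever library was left out. Nrg4 lost its call without any 1 of the HFD trained libraries and without chow sedentary replicate 4 or 5 (up to 0.119), Trarg1 without HFD trained replicate 3 or 4 and chow sedentary replicate 4 (up to 0.0877), and Tmem120a without HFD trained replicate 3 or 5 and any lymph node library (up to 0.0864). None of these 4 was called from chow without the lymph node libraries (adjusted p = 0.0844 to 0.436). Glrx, glutaredoxin, also named after its values were seen, was lower than in both sedentary groups, by -1.11 (adjusted p = 0.00987) and -1.06 (adjusted p = 0.016), and kept its call without the lymph node libraries (-1.28, adjusted p = 0.0437).

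**Figure D3:**
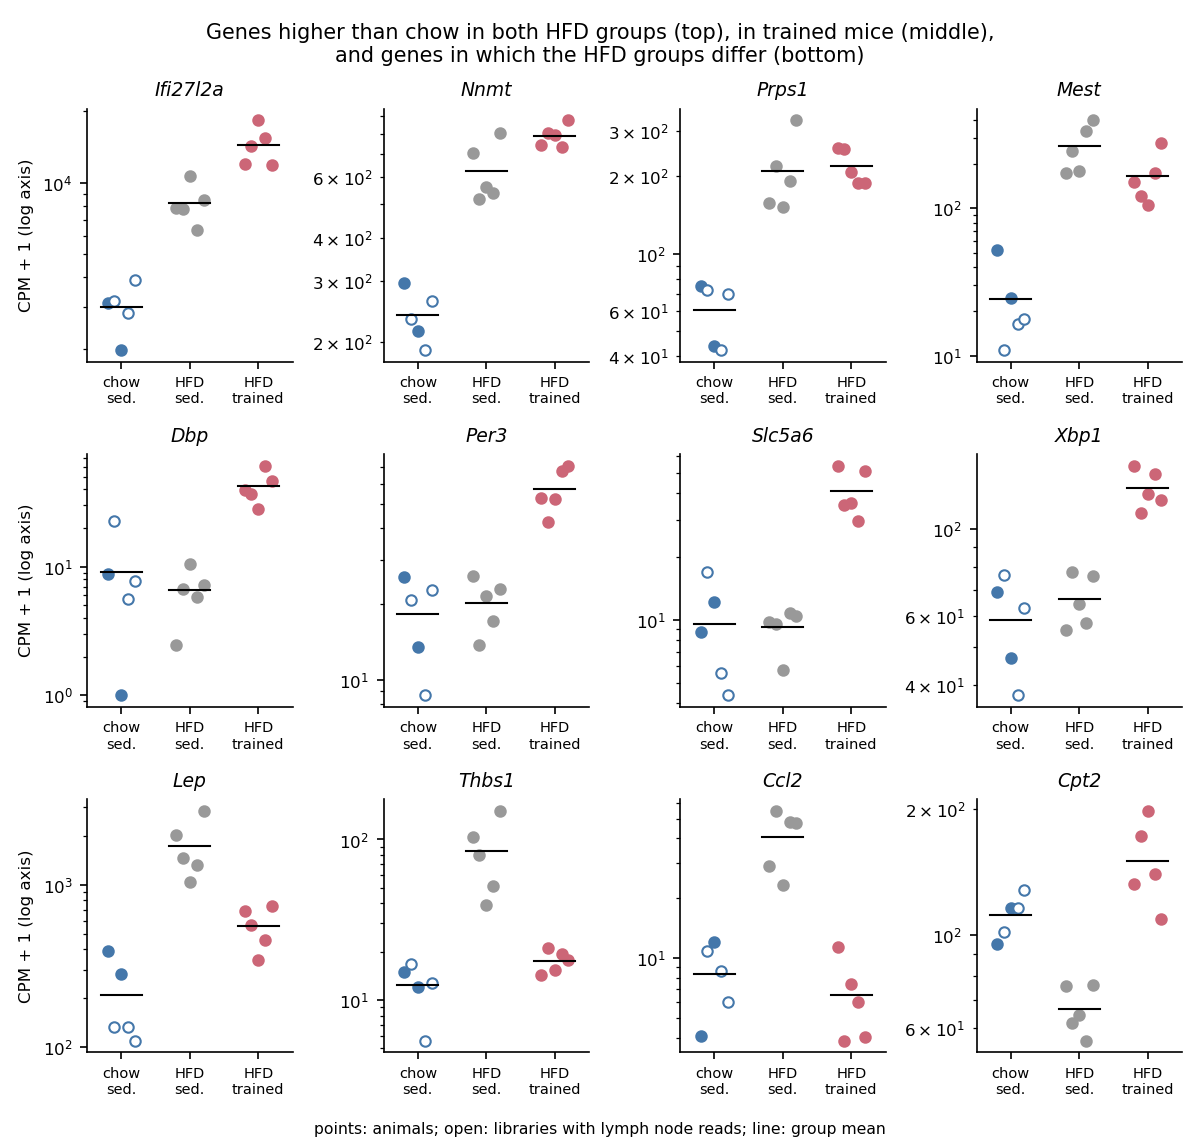
CPM plus 1 (log axis) of 12 genes in chow sedentary, HFD sedentary and HFD trained mice, one point per animal, open for libraries with lymph node reads, lines at group means. Chow trained mice are not shown. Ifi27l2a, Nnmt, Prps1 and Mest lie above chow in both HFD groups, Dbp, Per3, Slc5a6 and Xbp1 above both sedentary groups in HFD trained mice, and Thbs1, Ccl2 and Cpt2 of HFD trained mice overlap chow.

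Other genes that differed on HFD in sedentary mice did not pass the test in HFD trained mice. Thbs1, thrombospondin 1, had 13.9, 15.8, 11.1, 4.59 and 11.7 CPM on chow, 13.3, 20.0, 14.4, 18.4 and 16.8 in HFD trained mice and 103, 79.2, 38.0, 50.1 and 150 in HFD sedentary mice. The chow and HFD trained ranges overlapped, and neither reached the HFD sedentary range. Thbs1 had a log2 fold change of 0.40 in HFD trained (SE 0.36, adjusted p = 0.614) and 2.67 in HFD sedentary mice (adjusted p = 9.41e-06), with -2.27 between the HFD groups (SE 0.30, adjusted p = 0.000363). Against chow without the lymph node libraries it was 0.18 in HFD trained (adjusted p = 0.938) and 2.45 in HFD sedentary mice (adjusted p = 0.00287).

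Ccl2, which recruits monocytes, had 3.09 to 11.1 CPM on chow, 2.86 to 10.4 in HFD trained mice and 22.2 to 53.8 in HFD sedentary mice. Its log2 fold change was -0.55 in HFD trained (adjusted p = 0.606) and 2.21 in HFD sedentary mice (adjusted p = 0.00108), with -2.76 between the HFD groups (SE 0.41, adjusted p = 0.00128). The first was at -0.61 without the lymph node libraries (adjusted p = 0.808). Of 17 cytokine and chemokine genes 8 were tested. Ccl11, eotaxin, was the called one, at 0.86 (adjusted p = 0.043, up to 0.132 without HFD trained replicate 1, 2, 3 or 5 and without any 1 of the lymph node libraries, and 0.473 without all 3). The list median was 0.28 in HFD trained and 1.46 in HFD sedentary mice, where 5 were higher. Saa3, a serum amyloid of inflamed fat, had at most 6.70 CPM on chow, 4.29 to 18.3 in HFD trained mice and 26.4 to 223 in HFD sedentary mice, and its log2 fold change from chow was 1.89 (SE 0.93, adjusted p = 0.307; 0.0408 with the replicate block). Serping1, the C1 inhibitor, was at 0.61 (adjusted p = 0.133; 0.0335 without chow sedentary replicate 1) beside 1.503 in HFD sedentary mice (adjusted p = 0.000111).

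The same held for genes that were lower on HFD in sedentary mice. Ptges, prostaglandin E synthase, had 38.5 to 101 CPM on chow and 27.2 to 52.8 in HFD trained mice, a log2 fold change of -0.80 (adjusted p = 0.0816) beside -2.06 in HFD sedentary mice, and it was called without the lymph node libraries (-1.26, adjusted p = 0.0279). H2-Q10, a class I histocompatibility gene with near-identical relatives, was at -0.88 (adjusted p = 0.12) beside -2.35, and 5 of 26 alternatives called it, among them the replicate block (adjusted p = 0.0392), the fit of the 10 libraries alone (0.0344) and run A without its lymph node library (0.00343). Cpt2, which completes the entry of fatty acids into mitochondria, had 94.2, 101, 115, 115 and 127 CPM on chow and 132, 172, 197, 139 and 108 in HFD trained mice. Cpt2 had a log2 fold change of 0.29 (SE 0.18, adjusted p = 0.447) beside -0.94 in HFD sedentary mice (adjusted p = 0.00334), and the HFD groups differed by 1.23 (SE 0.19, adjusted p = 0.00188). It was at 0.28 from chow without the lymph node libraries (adjusted p = 0.779).

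Lists of lipid and energy metabolism outside synthesis held few calls. None of 21 fatty acid oxidation genes was called by edgeR, DESeq2 or limma voom (4 had an unadjusted p below 0.05), and the median was -0.06, against 5 lower and a median of -0.50 in HFD sedentary mice. None of 10 triglyceride synthesis genes was called by any of these tools (0 with an unadjusted p below 0.05), with a median of 0.06 against 5 lower and -0.74 in HFD sedentary mice. Of 76 nuclear respiratory chain genes edgeR and limma voom called none and DESeq2 called 1 (10 with an unadjusted p below 0.05). Their median was -0.25, against 20 lower and -0.48 in HFD sedentary mice. Of 15 mitochondrially encoded genes edgeR called mt-Co2 lower (-0.79, adjusted p = 0.038), DESeq2 called 4 and limma voom 2 (12 with an unadjusted p below 0.05). All 15 log2 fold changes were below 0, from -0.79 to -0.45, with a list median of -0.66. In HFD sedentary mice 9 were lower and the median was -0.94. The edgeR call of mt-Co2 was lost without HFD trained replicate 1, 2, 4 or 5 and without chow sedentary replicate 4 or 5 (adjusted p up to 0.119). Without all lymph node libraries its adjusted p was 0.132 and edgeR called no member of the list (7 with an unadjusted p below 0.05). mt-Co3, a cytochrome oxidase subunit, had 28000 to 37400 CPM on chow and 14860 to 27090 in HFD trained mice, without overlap, and an adjusted p of 0.0649 (log2 fold change -0.74, SE 0.22). DESeq2 (adjusted p = 0.0274) and the replicate block (0.0209) called mt-Co3, as did the covariates (0.0487) and the fit without a count filter (0.0171). Mitochondrially encoded genes took 15.5% to 21.5% of the counts on chow, 10.3% to 15.6% in HFD trained and 8.33% to 14.6% in HFD sedentary mice.

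Plin4, a lipid droplet coat protein, was the called gene among 13 of lipolysis and the lipid droplet, at 1.03 (SE 0.22, adjusted p = 0.0134). It had 283 to 521 CPM on chow and 783 to 1175 in HFD trained mice, and an adjusted p of 0.0555 without chow sedentary replicate 4. Lrp1, a receptor for lipoprotein remnants, was the called gene among 11 of lipoprotein lipase and fatty acid uptake (0.79, adjusted p = 0.0195, up to 0.0659 without HFD trained replicate 3 or 5 and without chow sedentary replicate 4). Mccc2, of leucine breakdown, was the called gene among 19 of branched-chain amino acid breakdown (0.81, adjusted p = 0.0411). It was lost without HFD trained replicate 1, 2, 3 or 4 and without any 1 of the lymph node libraries (up to 0.129). None of these was called without the lymph node libraries.

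Of 11 adipocyte identity genes edgeR and limma voom called none and DESeq2 called 1 (6 with an unadjusted p below 0.05), with a median of 0.44, and 0.20 without the lymph node libraries. Adipoq was at 0.58 (SE 0.21, adjusted p = 0.141), and was called with library totals (0.74, adjusted p = 0.0376). Among 11 thermogenic genes Elovl3, an elongase of brown fat, was lower at -3.19 (SE 0.78, adjusted p = 0.0304), with 5.03 to 26.0 CPM on chow and at most 4.29 in HFD trained mice, values at or below the 3 counts that a count of 0 allows. It was lost without HFD trained replicate 1, 3, 4 or 5 and without chow sedentary replicate 2 or 4 (up to 0.123), and at 0.256 without the lymph node libraries. Ucp1, the uncoupling protein of heat-producing fat cells, had 24.7, 236, 100, 604 and 126 CPM on chow and 28.1, 372, 250, 1.67 and 1.52 in HFD trained mice. HFD trained replicates 4 and 5 were near 0 and the other 3 lay within the chow range, which was itself wide. The log2 fold change of Ucp1 was -0.84 with an SE of 1.16 (adjusted p = 0.773).

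**Figure D4:**
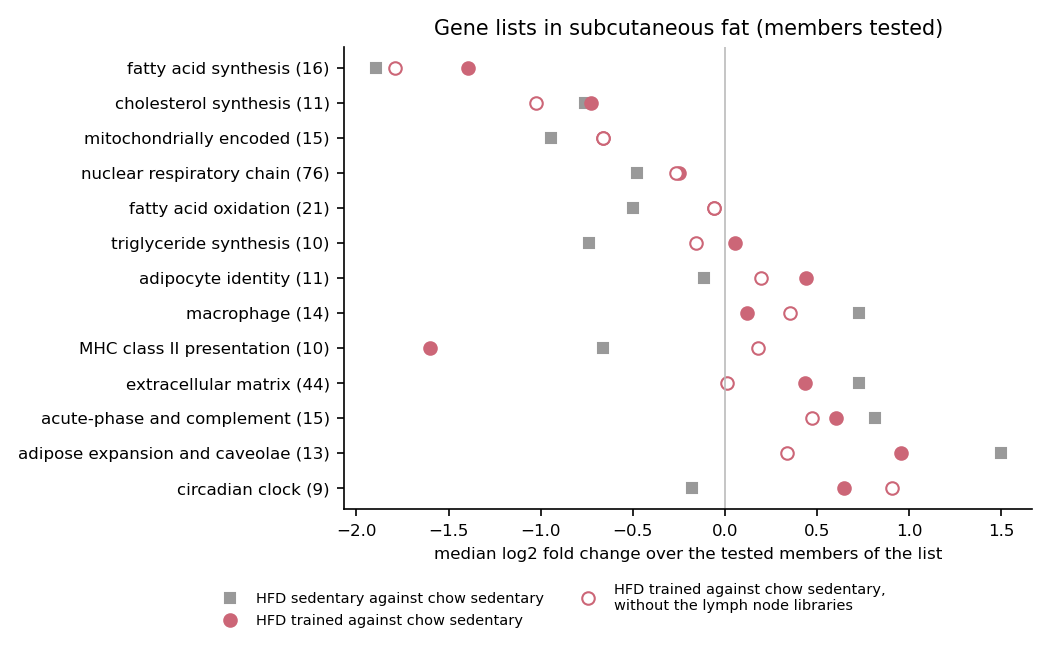
Median log2 fold change over the tested members of 13 gene lists, for HFD trained against chow sedentary mice with all libraries (filled circles) and without the lymph node libraries (open circles), and for HFD sedentary against chow sedentary mice (squares). Fatty acid synthesis has the lowest median in HFD sedentary mice (-1.90) and, without the lymph node libraries, in HFD trained mice (-1.79), while the MHC class II median is -1.60 over 10 members with all libraries and, over the 6 members tested in both fits, -1.05 with and 0.18 without the lymph node libraries. Each median is over the members tested in its own fit.

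Among the 10 libraries compared, reads of B cell, T and NK cell and lymph node stroma genes were high only in the lymph node libraries. The 3 stroma genes were themselves used to define those libraries. Of the 9 tested B cell, 13 T and NK cell and 3 lymph node stroma genes edgeR and limma voom called none, although their medians were -5.33, -4.60 and -5.78. All of them had an unadjusted p below 0.05, and DESeq2 called 7, 11 and 3. Ccl21a, the chemokine of lymph node stroma, was at 4.63, 1451, 4.17, 667 and 429 CPM on chow and at most 16.7 in HFD trained mice (-5.86, SE 1.63, adjusted p = 0.0698). Cd79a, of the B cell receptor, was at 1.54, 230, 0, 179 and 111 CPM on chow and at most 3.05 in HFD trained mice (-6.26, SE 1.66, adjusted p = 0.0631). Both groups overlapped for both genes. Cd79a was called in 6 of 23 alternatives and Ccl21a in 5 of 25, among them DESeq2 (adjusted p = 0.00716 and 0.00816), the replicate block (0.00179 and 0.0193) and the fits without chow sedentary replicate 1 (0.0257 and 0.0296) or 3 (0.0298 and 0.0344). Among the 50 lower genes, 12 had a chow sedentary mean at least 2 times higher in the libraries with lymph node reads than in those without, as had 2 of the 89 higher ones and 787 (11.1%) of all tested genes. Rassf2, one of the 10 leading lower genes, had 9.27, 59.4, 18.1, 26.0 and 25.1 CPM on chow and 4.44 to 10.0 in HFD trained mice, and was not testable without the lymph node libraries. Of 14 macrophage genes edgeR and limma voom called none and DESeq2 called 1 (5 with an unadjusted p below 0.05), and the median was 0.12, and 0.36 without the lymph node libraries. None of 18 muscle genes was called by the 3 tools (1 with an unadjusted p below 0.05) at a median of -3.17, with the muscle reads of chow sedentary replicate 1 the highest of the 10 libraries. Between the HFD groups their median was -4.60 and all 18 had an unadjusted p below 0.05. There DESeq2 called 10, and edgeR and limma voom called none. Emcn, of capillary and venous endothelium, was the called gene among 14 endothelial genes, at 0.93 (adjusted p = 0.0259). It lost the call without HFD trained replicate 4 and without any 1 of the lymph node libraries (adjusted p up to 0.075), and was at 0.80 without all 3 (adjusted p = 0.389).

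**Figure D5:**
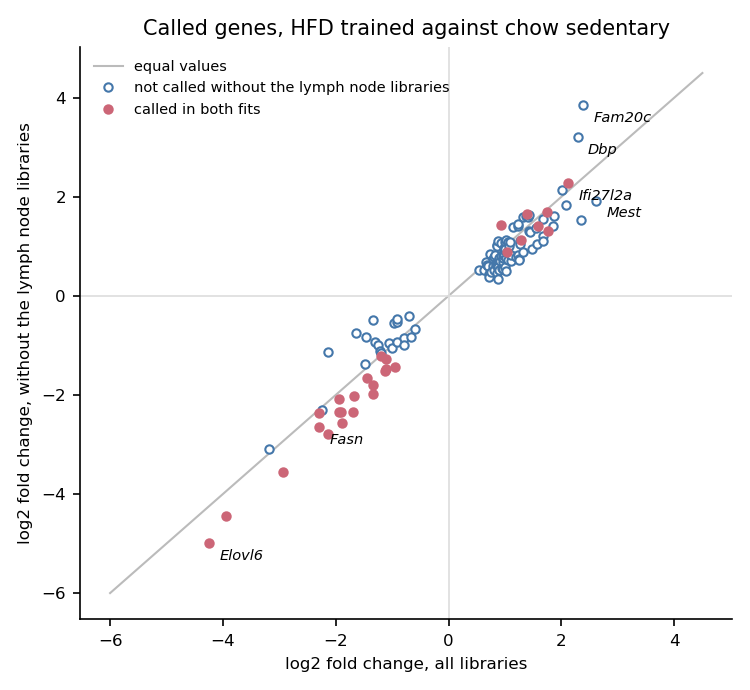
Log2 fold change of HFD trained against chow sedentary mice with all libraries (horizontal) and without the lymph node libraries (vertical), for the 131 called genes that could be tested in both fits, filled where called in both. The 28 filled points include 20 of the lower genes, with Fasn and Elovl6 further from 0 without the lymph node libraries, and 8 of the higher ones, with Ifi27l2a at 2.12 and 2.28.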

How the data were processed

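RNA of subcutaneous fat was measured by 3′ digital gene expression, with cDNA of 12 wells pooled, per the labels' protocols. The submitters' processing notes name Salmon 0.14.2 and the mm10 build. The deposited table held 54352 genes with 1 estimated count column per library, rounded to whole numbers by the authors, and a log2 column that the authors made from CPM values. Every test here used the counts, while the log2 column served as a check of the unit. All columns matched a sample, so 0 columns of other samples were left out. Use of strand and of molecular identifiers is not given in the sources used here. Rows without a symbol (259) were tested but are not named. Coordinates are those of GENCODE on mm10.

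All 20 subcutaneous fat libraries, 4 groups of 5 mice, were fitted with edgeR 4.0.16 in R 4.3.3 (TMM, filterByExpr by group, robust quasi-likelihood test, two-sided, Benjamini-Hochberg over the 7069 genes tested), and a gene was called below 0.05. The fit was tested on simulated data, in which no library carried added lymph node or muscle reads. That test therefore does not cover the effect of such reads. Log2 fold changes carry the TMM scaling. Each SE is the absolute log2 fold change divided by the square root of the quasi-likelihood F statistic. Libraries with at least 100 reads of 3 lymph node stroma genes were counted as lymph node libraries, and 1% muscle reads set the muscle-rich ones. Library codes in the column names were cut into blocks of 12, which gave run A (3 chow sedentary and 2 HFD trained libraries) and run B (2 and 3). No source says that a block is a pool, and both chow sedentary libraries of run B are lymph node libraries.

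Members and 37 gene lists were chosen with earlier results of these data known. Genes named were the 10 genes in each direction with the smallest adjusted p (absolute log2 fold change at least 1, mean log2 CPM at least 4), up to 3 called genes per list, up to 6 called also between the HFD groups, up to 6 called in HFD sedentary mice but not here, and 15 further genes. Other genes, apart from cell type markers, are marked as named after their values were seen. Alternatives changed the scaling, filter, tool (limma 3.58.1, DESeq2 1.42.0), libraries, covariates and run. They changed 1 choice at a time, apart from DESeq2, which was run without the count filter (and once with it, added after seeing the data), and run A without its lymph node library.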

Additional observations from a re-analysis of the deposited data

Results flagged for a closer look

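In 118 groups of 5 libraries of the named genes, 2 had a sample far from the others, and chance flags about 1 in 20 groups. Pmvk was at 41.13 CPM in HFD trained replicate 5, below the other 4 libraries at 49.57 to 52.88. Emcn was at 48.41 CPM in HFD trained replicate 4, above the other 4 at 31.99 to 34.04. Emcn was not called without that library, whereas Pmvk was called without replicate 5.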

How the results depend on the processing

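Of the 45 called genes named by the rules above, 26 were called whichever library was left out, and none changed sign under any alternative run. Genes marked as named after their values were seen are not among the 45. The number of called genes (139, 89 higher and 50 lower) was 250 (214 higher) with library totals, 524 (201 and 323) without a filter, 44 (9 higher) without the lymph node libraries, 291 (154 and 137) without the muscle-rich libraries and 220 (152 higher) with the run as a factor. Higher and lower calls were 29 and 85 with B cell and muscle scores as covariates. Run A alone gave 2 calls (2 higher, 0 lower with edgeR, where 228 were lower at an unadjusted p below 0.05), and 88 (40 higher) without its lymph node library, a setting chosen after seeing the data. DESeq2, run on 23534 genes without the count filter, called 308 (175 lower), and 336 (184 lower) on the 7069 genes tested in edgeR, a setting also chosen after seeing the data. By limma voom 26 were lower. Leaving out 1 library gave 49 to 418 calls, 33 to 194 higher and 16 to 226 lower. HFD sedentary against chow sedentary (449) gave 243 to 644 with 1 library left out and 139 without the lymph node libraries, and HFD trained against HFD sedentary (71) gave 28 to 88, 109 without the lymph node libraries and 126 by DESeq2 (144 on the same genes). The cause was not tested, apart from the number of libraries and genes.

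Replicate numbers name different animals. Same-numbered deviations correlated at -0.085 to 0.194 over 5 pairs, so the numbers do not pair the mice; with them as a replicate block 337 genes were called, 166 higher and 171 lower.

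None of these genes was called, but their sign turned: Thbs1 (-0.18) and Cpt2 (-0.018) with the covariates, Ccl21a with the covariates (0.45), without the lymph node libraries (0.79) and in run A without its lymph node library (0.89), and Col1a1 in both latter fits (-0.38 and -0.30). Ucp1 turned in those fits (0.84 and 1.48), in run A (0.74) and without chow sedentary replicate 4 (0.07), with a range of -1.755 to 0.07 over the fits with 1 library left out. The filter at 10 CPM in 5 libraries, meant to be stricter, kept more genes than the main one. Depth limits genes near the 3 counts that a count of 0 allows.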
